A study of Mus musculus with 81 samples.

Results

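The 9 genes described here encode the Toll-like receptors of the cell surface, Tlr1, Tlr2, Tlr4, Tlr5 and Tlr6, the related surface protein Cd180, and the proteins that sit with them, Ly86, Ly96 and Cd14. A gene entered through probes that carried its symbol and no other, and each of the 9 had 1 such probe. They are 9 of the 22180 genes with a probe of that kind and 9 of the 17099 genes tested, and all 9 passed the floor on low values. The floor was 3.04 log2 units, the median of all values in the table, to be exceeded in at least 2 arrays. Above it were between 70 of 80 samples, for Ly86, and 79 of 80, for Tlr4 and Tlr5.

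The samples were sorted mouse macrophages and progenitors of wild-type mice and of mice labelled Irf8 knockout, which lack the transcription factor Irf8. There were 14 wild-type groups with 41 samples and 13 knockout groups with 39 samples. Erythro-myeloid progenitors of the E8 yolk sac were wild type only. Both genotypes were sampled for the E9.5 yolk sac progenitor populations A1 and A2, and at E14 for brain microglia, liver Kupffer cells, F4/80high macrophages of the kidney, and the CD11bhigh macrophages that liver and kidney each hold. The same 5 populations and the Langerhans cells of the skin were taken from adults of 6 weeks. Each group had 3 samples, but for E14 kidney F4/80high macrophages of the wild type, with 2. The sources used here do not give the strain, the deleted part of Irf8 or whether animals were pooled. The sample titles of the wild-type Langerhans cells carry the mark GFP+, and those of the knockout Langerhans cells do not.

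Toll-like receptors recognise molecules of microbes and signal through TIR-domain adaptors to NF-kappa-B. Tlr2 pairs with Tlr1 or Tlr6 to bind lipopeptides, Tlr4 binds lipopolysaccharide together with Ly96 (MD-2) after Cd14 has delivered it, and Tlr5 binds flagellin. Cd180 resembles the outer part of Tlr4 but has no TIR domain. It reaches the surface in a complex with Ly86 (MD-1), best known from B cells, and macrophages express both.

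Values are deposited RMA log2 signals, and a level of one gene is never set against that of another, because probes differ in their response. The 81 arrays had medians between 2.94 and 3.19 log2 units, and their number limits the precision. The labels do not say which samples came from separate animals, so p-values measure the spread between these samples, which may be technical. Irf8 itself was called lower in the knockout in 4 populations only, with the largest difference in E14 liver CD11bhigh macrophages (-3.02 log2). Its probe does not check the labels elsewhere, because the deleted part is not known. Marker lists were read in adult populations of the same name. The Kupffer list averaged 9.70 to 10.02 in wild-type adult Kupffer samples. The microglia list averaged 10.1 to 10.3 in adult microglia and the Langerhans list 9.67 to 9.82 in Langerhans cells. Some knockout groups differed from their wild type: Kupffer markers were lower in E14 Kupffer cells, and neutrophil or endothelial markers higher in others, as given below. In the E14 liver CD11bhigh samples, labelled macrophages, the neutrophil list was high in both genotypes, at 9.28 to 9.55 in the wild type and 10.2 to 10.3 in the knockout. In bulk samples like these, fewer cells of a type and less RNA per cell cannot be told apart.

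The promoters of the genes whose levels the results turn on are shown for reference, as the 250 bases before the start site in RefSeq (GRCm38.p6). Of 8 members looked up, which left out Cd14, 6 had an entry, and Tlr4 and Ly96 were not matched. Ly86 and Cd180 lie on the same chromosome, at chr13:37345345-37419036 and chr13:102693547-102706631, and their promoter windows are at chr13:37345095-37345344 and chr13:102693297-102693546, both on the plus strand. The window of Tlr6, whose gene spans chr5:64953092-64970942, is at chr5:64959167-64959416 on the minus strand, before a start site inside that span. Tlr1, Tlr6 and Cd180 have 2 listed start sites each, of which the first is shown for Tlr6 and Cd180. Capitals mark a match to the interferon repeat searched for.
Ly86: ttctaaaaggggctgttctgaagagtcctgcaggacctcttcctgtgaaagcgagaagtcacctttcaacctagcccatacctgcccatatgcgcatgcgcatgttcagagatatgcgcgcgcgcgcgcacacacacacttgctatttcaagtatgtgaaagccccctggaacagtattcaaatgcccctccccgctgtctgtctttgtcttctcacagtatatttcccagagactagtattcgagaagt
Cd180: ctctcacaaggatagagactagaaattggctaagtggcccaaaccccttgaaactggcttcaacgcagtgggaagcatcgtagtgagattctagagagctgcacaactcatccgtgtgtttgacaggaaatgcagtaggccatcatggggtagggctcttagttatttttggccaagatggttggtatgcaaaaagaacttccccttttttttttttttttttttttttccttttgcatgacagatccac
Tlr6: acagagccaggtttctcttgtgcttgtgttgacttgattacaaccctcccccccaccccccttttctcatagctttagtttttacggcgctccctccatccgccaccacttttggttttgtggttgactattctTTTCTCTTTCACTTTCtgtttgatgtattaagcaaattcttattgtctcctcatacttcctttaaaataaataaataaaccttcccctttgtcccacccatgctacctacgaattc
Both strands were searched for 3 patterns bound by interferon regulatory factors or their partners. The interferon repeat, GAAA followed after 2 free bases by GAAA, occurred in 2.98% of 32851 promoter windows of the same length. The ETS-IRF composite, GGAA followed after 2 free bases by GAAA, occurred in 2.30% and the PU.1-type core GAGGAA in 23.3%. The Tlr6 window shown held 2 overlapping interferon repeats on the opposite strand, starting 116 and 110 bases before the start site. One of the Tlr1 windows held the PU.1-type core 23 bases before the start. No match was found in the other Tlr6 window, nor in the windows of Ly86, Cd180, Tlr2 or Tlr5. A match is a description of the letters, and its absence from a window says nothing of the factor.

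In wild-type mice the members came up during the passage from progenitor to yolk sac macrophage precursor. In E8 progenitors, only Tlr4 (3.42 to 3.63 log2) and Tlr5 (3.33 to 3.87) were above the floor in every sample. Between E8 progenitors and E9.5 A1, 7 of 9 members were called higher, against 12.8% of all genes tested, with a median difference of 2.18 log2 over the members and -0.06 over all genes. The E8 means of Cd180, Ly86, Tlr2, Tlr6, Ly96 and Cd14 lay under the floor, so the sizes of their differences are not exact and do not rank the genes. Cd180 read 2.39, 3.22 and 2.80 in the E8 samples and 7.18, 7.48 and 7.70 in the A1 samples, which did not overlap (difference 4.65 ± 0.21 SE, n = 3 against 3, limma adjusted p = 5.17e-29). Ly86, its partner, went from 2.57, 2.89 and 2.53 to 5.32, 6.21 and 6.55 (3.36 ± 0.62, limma adjusted p = 1.23e-05).

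From A1 to A2, 6 of 9 members were called higher, against 5.67% of genes. Ly86 led with samples of 8.91, 8.74 and 8.63 in A2 (2.74 ± 0.62, limma adjusted p = 0.000818). The lipopolysaccharide receptor Tlr4 rose by 2.08 ± 0.25 and its partner Ly96 by 1.86 ± 0.28. Tlr1, Tlr2 and Cd180 rose by 1.46, 1.35 and 1.33. Tlr5, Tlr6 and Cd14 were not called at this step.

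From A2 to the E14 tissues the members took different courses. In microglia 6 were called higher (14% of genes), in Kupffer cells 5 higher (11.5%) and 1 lower (14%), and in kidney F4/80high macrophages 4 higher (9.89%). Cd14, which hands lipopolysaccharide to Tlr4, rose in each, by 2.42 in microglia, 1.74 in Kupffer cells and 3.09 in kidney. Tlr1 also rose in each, by 1.33, 1.05 and 1.08. Its Kupffer call ended without A2 replicate 3 (limma adjusted p = 0.0529), and its kidney call without that sample (0.0880) or E14 kidney replicate 2 (0.240). Tlr6, a partner of Tlr2, rose by 1.91 in microglia and 1.42 in Kupffer cells. Cd180 rose by 1.02 in microglia and fell by 0.55 in Kupffer cells, a call that ended when any of its samples was left out (limma adjusted p = 0.0508 to 0.111) and with quantile normalization (0.0581) or no trend (0.0503). The call for Ly86 in microglia (1.61) likewise ended with any sample left out (0.0690 to 0.104), with median centring (0.0606) and with no floor (0.0524). The samples of this step did not overlap, with SDs of 0.05 in E14 microglia and 0.14 in A2. The SE of Ly86 (0.62) came from all groups together, among them the E14 kidney F4/80high knockout with an SD of 3.19.

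Between E14 and adult, 3 members were called higher in microglia (6.68% of genes), 2 in Kupffer cells (11.8%) and 4 in kidney F4/80high macrophages (12.2%). Cd14 was called in all 3 tissues, by 2.20, 1.64 and 2.24. In kidney it went from 7.63 and 7.64 to 10.02, 9.74 and 9.87. The adult samples were above the embryonic ones in each tissue. The other 3 kidney calls, Tlr1 (1.08), Tlr6 (1.04) and Cd180 (0.62), all ended without wild-type E14 replicate 1 (limma adjusted p = 0.179, 0.142 and 0.192), which left Cd14 alone. Cd180 also ended with any of 3 other samples left out (0.0982 to 0.102) and with median centring (0.0922), and Tlr6 without E14 replicate 2 (0.0611) or adult replicate 3 (0.0781). Tlr5, the flagellin receptor, and Ly96 were called in microglia alone of the 3 tissues. Tlr5 went from 3.99, 4.78 and 5.38 to 6.71, 6.48 and 6.78 (1.94 ± 0.30, limma adjusted p = 4.40e-07). Ly96 rose by 1.17 ± 0.28 (limma adjusted p = 0.000945). Ly86, already high at E14, was not called at any of these steps.

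**Figure D1:**
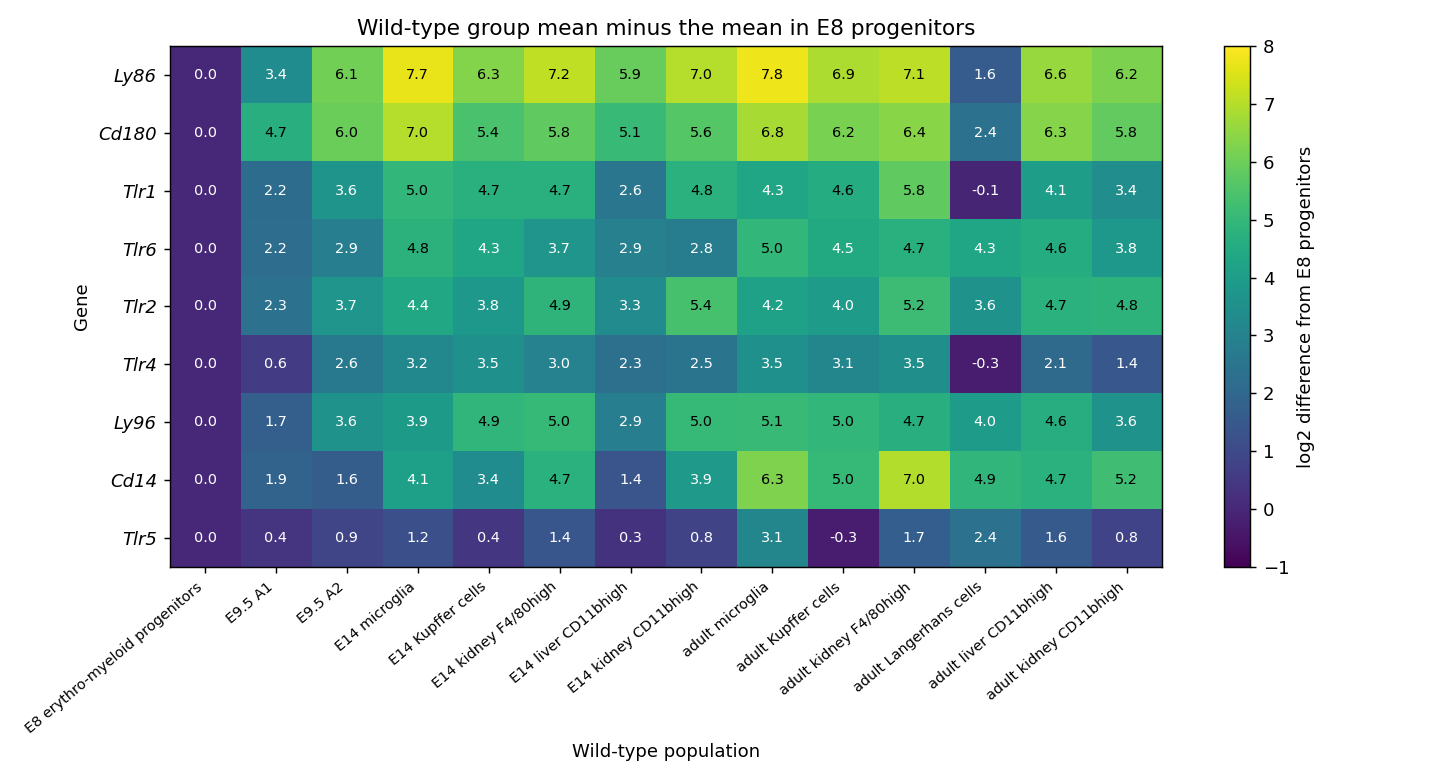
Heat map of the 9 members (rows) over the 14 wild-type populations (columns), coloured by group mean minus the mean of E8 progenitors in log2 units. Cd180 was 4.65 above E8 in A1, while Cd14 had its highest means in adult kidney F4/80high macrophages and adult microglia.

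The order of the wild-type levels differed from gene to gene. Ly86 was highest in microglia, with means of 10.43 ± 0.08 (SD, n = 3) in adults and 10.37 ± 0.05 at E14, which were within their spread of each other. Then came the kidney F4/80high macrophages at 9.82 (E14) and 9.78 (adult), also indistinguishable, and the lowest were Langerhans cells at 4.29 ± 0.70 and E8 progenitors at 2.66. For Ly86, 8 of 13 gaps between neighbours in the order exceeded the larger SD of both, and for Cd180 9 of 13. For Tlr5 and Tlr6 only 2 of 13 did. Cd180 also had microglia at the top (9.81 at E14, 9.64 in adults) and Langerhans cells near the bottom (5.20). Tlr1 and Cd14 had the adult kidney F4/80high macrophages at the top, at 8.99 ± 0.09 and 9.88 ± 0.14, each beyond the spread from the next. Tlr5 had adult microglia at the top (6.65 ± 0.16) and adult Kupffer cells at the bottom (3.25 ± 0.35).

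Among the adult residents, each set against the mean of the other 3, Langerhans cells stood lowest for most members. There 7 of 9 were called lower (27.3% of genes) and Tlr5 alone higher (25.6%). Ly86 read 4.48, 4.88 and 3.52 in Langerhans cells, against a mean of 9.93 over the other 3, and Tlr1 read 3.99, 2.96 and 2.38 against 8.09. No sample of the other tissues reached down to these values. The differences were -5.63 ± 0.51 for Ly86 and -4.97 ± 0.25 for Tlr1, then -4.09 for Cd180 and -3.66 for Tlr4. For Tlr1, 2 of 3 Langerhans samples were at or under the floor, so its difference is limited by what the array can read. Tlr6 was not called in Langerhans cells.

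Microglia had 6 members called higher (20.5%), with Tlr5 1.89 above the other 3, Cd180 1.83 and Ly86 2.55. Kidney F4/80high macrophages had 6 higher (17.8%), among them Tlr1 (2.87), Ly86 (1.69) and Cd14 (1.57). Kupffer cells had 4 higher (15.9%), namely Tlr1, Tlr4, Cd180 and Ly86, and 2 lower (23.1%), Tlr5 (-2.65) and Cd14 (-1.03). The other 3 include Langerhans cells, and in all 4 higher calls the Kupffer samples overlapped the rest. For Tlr4, Cd180 and Ly86 the Kupffer means (6.67, 9.01 and 9.57) were below those of microglia and kidney F4/80high macrophages. Tlr1, called higher in microglia, had a lower mean there (7.51) than in Kupffer cells (7.76) or kidney F4/80high macrophages (8.99). Tlr5 in Kupffer cells read 3.58, 3.27 and 2.89, close to the floor and below all 9 samples of the other tissues.

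In the knockout, the common direction was down. Over 13 populations and 9 members, 54 of 117 tests were called. Of these 44 were lower, against 6.58% of the tests of all genes, and 10 higher, against 6.35%. In 50 of the 54 the knockout and wild-type samples did not overlap, and in 4 they did. The same share was not counted for called tests of all genes, so it does not set the members apart. Ly86 was called lower in 10 of 13 populations and never higher. Tlr1 and Tlr2 were called lower in 6 each, Tlr6, Cd180 and Ly96 in 5 each, Tlr4 in 3, and Tlr5 and Cd14 in 2 each. The higher calls were 3 for Tlr5, 2 for Tlr2 and 1 each for Tlr1, Tlr4, Cd180, Ly96 and Cd14.

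The most members were lower in adult Kupffer cells, with 7 of 9 members lower against 7.39% of all genes (median of the members -0.91 log2, of all genes -0.04), and in adult liver CD11bhigh macrophages, with 7 lower against 7.56% (-1.22 and -0.02). In adult Kupffer cells the calls of Tlr1, Tlr2, Tlr4, Tlr6 and Ly96 ended with only the compared groups fitted (limma adjusted p = 0.0576 to 0.527). For Tlr4 and Ly96 the samples there also overlapped. A2 had 6 lower against 6.28% (-1.66 and 0.02) and E14 Kupffer cells 6 against 9.81% (-1.12 and 0.03). E14 kidney CD11bhigh macrophages had 5 lower against 8.05%. A1 had 1 lower against 2.77% and E14 kidney F4/80high macrophages 2 against 1.38%.

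In 4 populations members moved both ways. E14 microglia had 3 lower (5.98%) and 2 higher (8.30%), and E14 liver CD11bhigh macrophages 3 lower (8.29%) and 2 higher (5.73%). Adult microglia had 2 lower (8.71%) and 2 higher (5.85%), and Langerhans cells 2 lower (10.4%) and 2 higher (16.6%). Adult kidney F4/80high macrophages had 1 higher (1.37%) and adult kidney CD11bhigh macrophages 1 higher (6.94%), with no member called lower in either. Counts of 1 or 2 members, as in Langerhans cells and adult kidney CD11bhigh macrophages, were not tested against the share of all genes. They are not read as a result about the members.

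**Figure D2:**
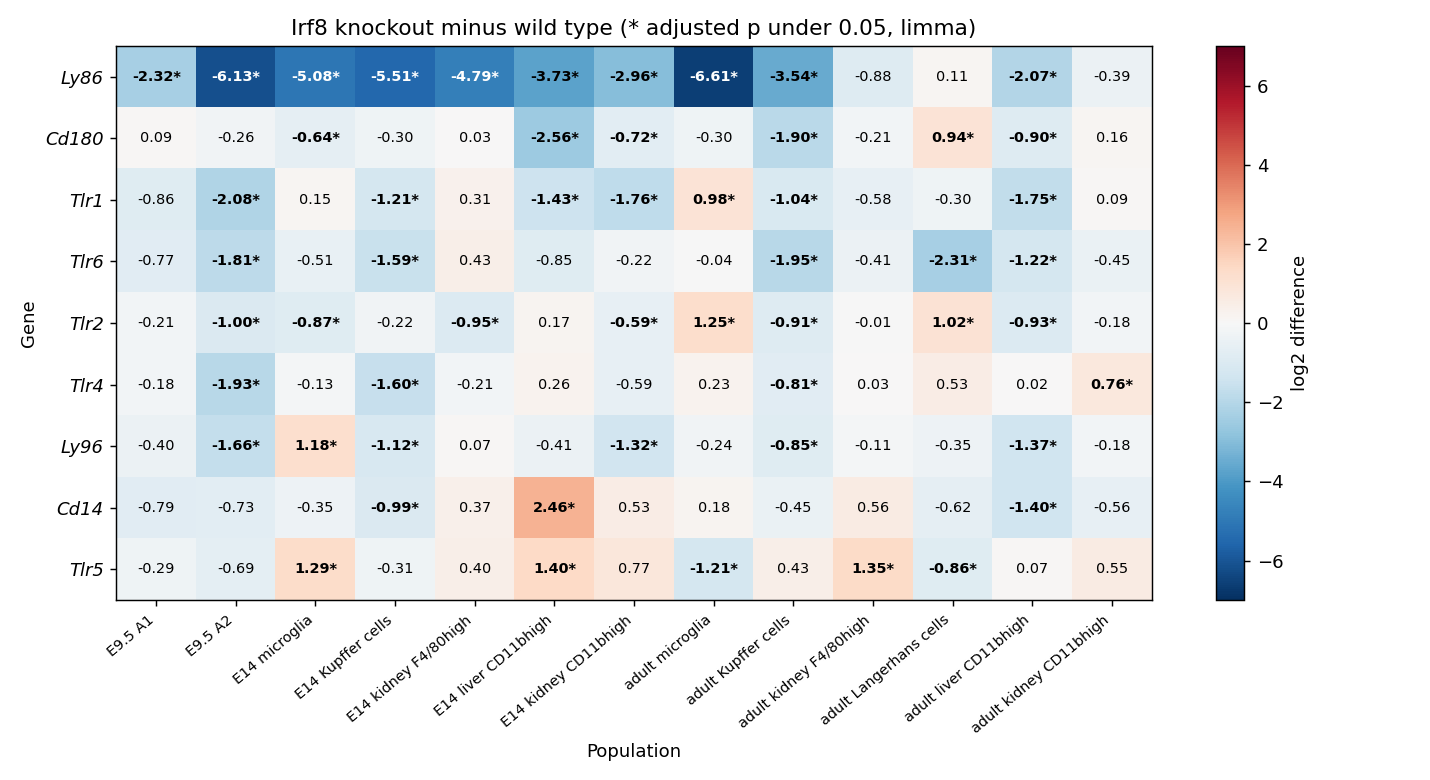
Heat map of knockout minus wild type in log2 units for the 9 members (rows) in 13 populations (columns), with bold and * where limma's adjusted p was under 0.05. The row of Ly86 is blue in all but the Langerhans cells, and the 10 red calls are spread over the rows of 7 genes.

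Ly86 had the largest differences of the set. In adult microglia it read 10.34, 10.48 and 10.46 in the wild type and 4.49, 2.78 and 4.18 in the knockout (-6.61 ± 0.62 SE, n = 3 against 3, limma adjusted p = 1.50e-13). In A2 it read 8.91, 8.74 and 8.63 against 2.73, 2.63 and 2.55, so that all 3 knockout samples were under the floor (-6.13, limma adjusted p = 6.64e-12). No knockout sample came near a wild-type one in either population, and a difference that ends under the floor is a lower limit of its size. In E14 Kupffer cells the change was -5.51 and in E14 microglia -5.08, each with knockout samples far below the wild type. In adult Kupffer cells it was -3.54, in E14 liver CD11bhigh macrophages -3.73 and in adult liver CD11bhigh macrophages -2.07. The call in A1 (-2.32) ended without wild-type replicate 2 (limma adjusted p = 0.0818) or 3 (0.139) or knockout replicate 3 (0.204), and that in adult liver CD11bhigh macrophages without knockout replicate 1 (0.0703).

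The kidney was the exception in its spread and in its adult values. In E14 kidney F4/80high macrophages Ly86 read 9.81 and 9.82 in the wild type and 2.91, 3.48 and 8.70 in the knockout. The first pair of knockout samples lay near the floor and the third near the wild type. The difference was -4.79 ± 0.69 (limma adjusted p = 3.13e-06), -6.62 without knockout replicate 3, and not called when only the compared groups were fitted (0.177). In E14 kidney CD11bhigh macrophages knockout replicate 3 again stood apart, at 8.42 against 6.08 and 5.56, with a wild type of 9.58 to 9.72. The difference there was -2.96, and -3.83 without that sample, whose neutrophil list average was 8.41 against 10.1 and 9.98 in the others. The part of that list in the result was not tested. In adult kidney F4/80high macrophages Ly86 stayed high in both genotypes, at 9.68, 9.91 and 9.77 against 9.10, 8.91 and 8.70. These samples did not overlap, but the difference of -0.88 was not called (limma adjusted p = 0.651), except when only the compared groups were fitted (0.00652). The main fit pooled the spread of Ly86 over all groups. Its SD was 0.12 in these wild-type samples, 0.20 in these knockout samples and 3.19 in the E14 F4/80high knockout. In adult kidney CD11bhigh macrophages (-0.39) and Langerhans cells (0.11) the samples overlapped.

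Cd180, the partner of Ly86, changed in a narrower set. In E14 liver CD11bhigh macrophages it read 8.12, 7.85 and 7.69 in the wild type and 5.67, 4.94 and 5.37 in the knockout (-2.56 ± 0.21, limma adjusted p = 2.31e-15). In adult Kupffer cells it read 9.10, 8.85 and 9.06 against 7.79, 6.42 and 7.11 (-1.90, limma adjusted p = 3.22e-10). In both, every knockout sample was below every wild-type one. Smaller falls were called in adult liver CD11bhigh macrophages (-0.90), E14 kidney CD11bhigh macrophages (-0.72) and E14 microglia (-0.64), the last of which ended whichever sample was left out (limma adjusted p = 0.0531 to 0.0863). That in E14 kidney CD11bhigh macrophages ended without knockout replicate 1 (0.0527). In Langerhans cells Cd180 was higher, at 6.19, 6.57 and 5.65 against 5.67, 5.06 and 4.86 (0.94, limma adjusted p = 0.000241), and those samples overlapped by a narrow margin.

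Cd180 was not called in A2 or in adult microglia, where Ly86 fell most. In A2 Cd180 read 8.80, 8.72 and 8.83 in the wild type and 8.61, 8.43 and 8.53 in the knockout (-0.26, limma adjusted p = 0.555). In adult microglia it read 9.90, 9.50 and 9.51 against 9.28, 9.31 and 9.42 (-0.30, limma adjusted p = 0.424). The knockout samples were below the wild type in both, by little. Whether Cd180 and Ly86 changed by different amounts was not tested. B cells also express both genes. The B cell list was higher in the knockout in 4 of 10 genes in adult Kupffer cells (averages 4.08 to 4.87 in the wild type, 4.91 to 5.60 in the knockout) and in 7 of 10 in adult liver CD11bhigh macrophages (3.58 to 3.69 and 4.24 to 5.09). Cd180 and Ly86 were both lower in those groups, and the part of B cells was not tested. In the E14 liver CD11bhigh group 4 of 14 neutrophil markers were higher and 4 of 8 general macrophage markers lower, also not tested.

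**Figure D3:**
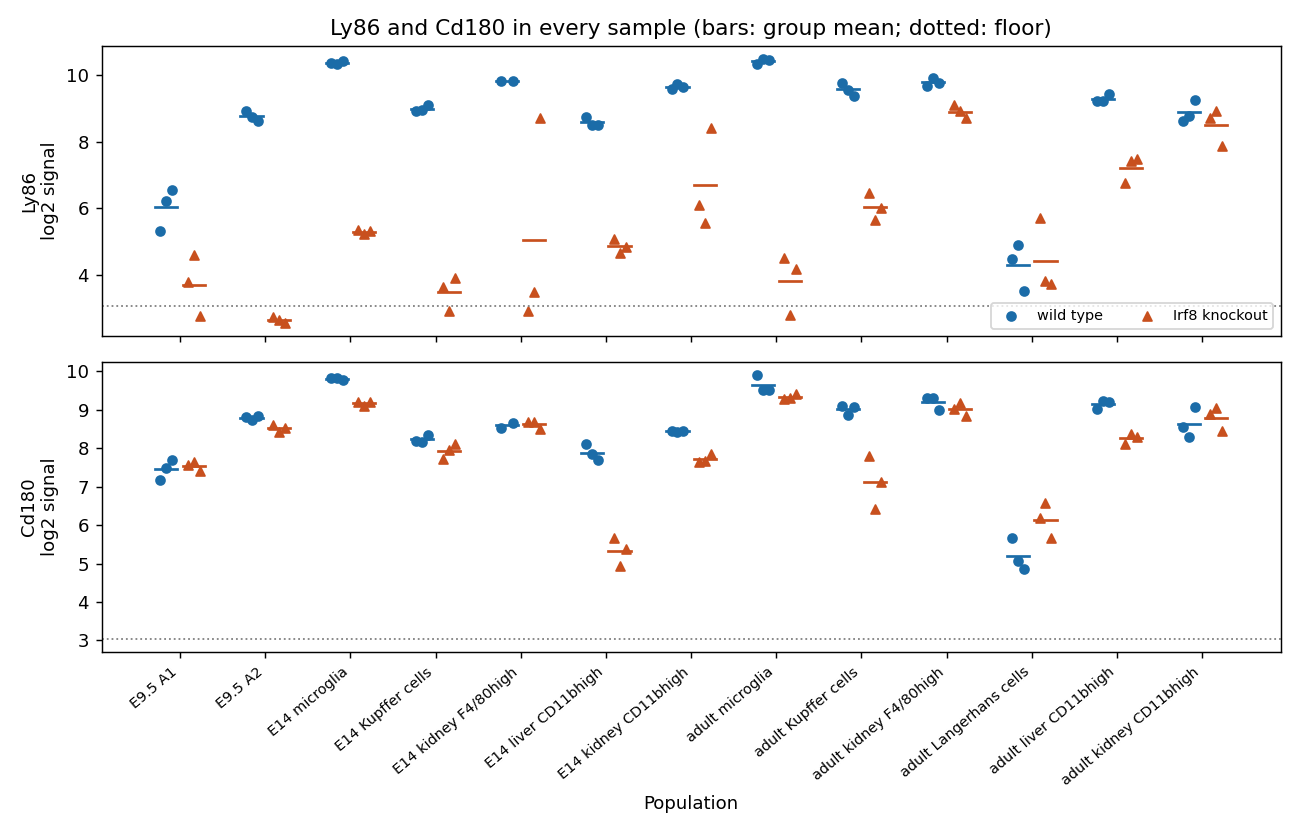
Log2 level of Ly86 and Cd180 in every sample of each population, wild type and knockout, with bars at group means and a dotted line at the floor of 3.04. Ly86 falls to the floor in A2 while Cd180 stays between 8.43 and 8.83 there, and the knockout replicate 3 of E14 kidney F4/80high macrophages sits at 8.70 for Ly86.

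The lipopeptide receptors Tlr1, Tlr2 and Tlr6 fell together in A2 and in the liver of adults. In A2, Tlr1 read 6.95, 6.98 and 6.55 in the wild type and 4.79, 5.27 and 4.19 in the knockout (-2.08 ± 0.31, limma adjusted p = 6.16e-07). Tlr6 read 5.51, 5.54 and 5.79 against 4.52, 3.41 and 3.46 (-1.81, limma adjusted p = 1.32e-05), and Tlr2 changed by -0.999. The A2 knockout samples lay below the wild type for each of the 3 genes. General macrophage markers were also lower in A2, 6 of 8 (averages 7.90 to 8.19 in the wild type and 6.16 to 6.74 in the knockout), and their part was not tested.

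In adult Kupffer cells Tlr6 read 7.44, 7.04 and 7.14 in the wild type and 6.20, 4.42 and 5.16 in the knockout (-1.95 ± 0.31, limma adjusted p = 6.43e-06). Tlr1 changed by -1.04 and Tlr2 by -0.91 in the same cells. When only the compared groups were fitted none of the 3 was called (limma adjusted p = 0.0576, 0.102 and 0.210), and the Tlr1 call also ended without wild-type replicate 1 (0.110) or knockout replicate 2 (0.0722) and with array weights (0.265). In these samples 9 of 10 endothelial markers were higher in the knockout (averages 5.30, 5.36 and 7.06 in the wild type, 7.62 to 8.04 in the knockout), and of 4 sex-linked genes 1 was higher and 3 lower. Their part was not tested. In adult liver CD11bhigh macrophages the changes were -1.75 for Tlr1, -1.22 for Tlr6 and -0.93 for Tlr2, none with overlapping samples. There 11 of 14 neutrophil markers were higher in the knockout (5.33 to 6.91 and 9.99 to 10.3), also not tested.

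Tlr1 fell in E14 liver CD11bhigh macrophages (-1.43). Tlr6 there was -0.85 (limma adjusted p = 0.0579), with no overlap of samples, and was called with array weights (0.00105), a floor at the 75th percentile (0.0413) or only the compared groups (0.00118). In E14 Kupffer cells Tlr1 changed by -1.21 and Tlr6 by -1.59, and Tlr2 was not called (-0.22). In E14 kidney CD11bhigh macrophages Tlr1 changed by -1.76 and Tlr2 by -0.59. The last rested on its samples: it was -0.30 without knockout replicate 1 (limma adjusted p = 0.448) and -0.91 without knockout replicate 3 (0.000656), and the call ended in 5 of 6 fits with a sample left out and with only the compared groups (0.253). Neutrophil markers were higher there, 9 of 14 (4.91 to 7.51 in the wild type and 8.41 to 10.1 in the knockout), and their part was not tested. Tlr2 also fell in E14 microglia (-0.87) and in E14 kidney F4/80high macrophages (-0.95), the latter not called in 4 of 5 fits with a sample left out (0.0693 to 0.165) nor with only the compared groups (0.183).

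In adult microglia Tlr2 went the other way. It read 6.85, 6.69 and 6.84 in the wild type and 8.11, 8.13 and 7.89 in the knockout (1.25 ± 0.20, limma adjusted p = 1.37e-06), all knockout samples above all wild-type ones. Tlr1 was higher there too, at 8.50, 8.44 and 8.52 against 7.39, 7.42 and 7.73 (0.98, limma adjusted p = 0.0224), although the call ended in 5 of 6 fits with a sample left out (0.0522 to 0.0783). Tlr6 was not called (-0.043), and its sign turned with quantile normalization (0.014). In Langerhans cells Tlr2 was higher, 7.37, 7.23 and 7.11 against 6.23, 6.26 and 6.16 (1.02, limma adjusted p = 3.83e-05). In the same cells Tlr6 was lower, 4.15, 5.63 and 4.54 against 6.91, 7.28 and 7.05 (-2.31, limma adjusted p = 1.88e-08). Genotypes did not overlap for either gene, and all 5 keratinocyte markers were higher in the knockout there (7.15 to 7.54 and 9.43 to 9.57), a part not tested.

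Of the lipopolysaccharide receptor, Tlr4 and Ly96 fell together in A2 and in E14 Kupffer cells. In A2 Tlr4 read 6.04, 6.21 and 6.26 in the wild type and 4.54, 4.58 and 3.61 in the knockout (-1.93 ± 0.25, limma adjusted p = 1.85e-08), with Ly96 at -1.66. In E14 Kupffer cells Tlr4 read 7.05, 6.92 and 7.24 against 5.54, 5.44 and 5.44 (-1.60, limma adjusted p = 1.10e-06), with Ly96 at -1.12 and Cd14 at -0.99. All 3 genes had knockout samples below the wild type there. In these Kupffer cells 7 of 8 Kupffer markers were lower in the knockout (8.55 to 8.74 and 5.86 to 6.50) as were 7 of 8 general macrophage markers, and their part was not tested.

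In adult Kupffer cells both calls were weak and the samples overlapped. Tlr4 read 6.94, 6.71 and 6.35 in the wild type and 6.76, 5.44 and 5.37 in the knockout (-0.81, limma adjusted p = 0.0233). It was -1.26 without knockout replicate 1 and not called without wild-type replicate 1 or 2 or knockout replicate 2 or 3 (0.0638 to 0.202), with array weights (0.159) or with only the compared groups (0.476). Ly96 read 7.51, 7.56 and 7.01 against 7.14, 5.31 and 7.09 (-0.85, limma adjusted p = 0.0333), and without knockout replicate 2 it was -0.25 (0.687). It was also not called without wild-type replicate 1 (0.121) or 2 (0.123), with array weights (0.462) or with only the compared groups (0.527). That replicate is the low one for Ly96, Tlr6 and Cd180 alike.

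Ly96 was higher in the knockout of E14 microglia, at 7.50, 7.03 and 7.86 against 5.97, 6.56 and 6.33 (1.18 ± 0.28, limma adjusted p = 0.00135). The sets of samples did not overlap. In that population 10 of 14 neutrophil markers (3.44 to 6.73 in the wild type, 8.25 to 8.67 in the knockout) and 7 of 7 monocyte markers (3.49 to 4.06 and 6.19 to 6.62) were higher too, and their part was not tested. Ly96 fell in E14 kidney CD11bhigh (-1.32) and adult liver CD11bhigh macrophages (-1.37). Tlr4 was higher in adult kidney CD11bhigh macrophages (0.76, limma adjusted p = 0.0315), a call that ended in 4 of 6 fits with a sample left out (0.0561 to 0.150), when arrays were weighted (0.193) and when the compared groups alone were fitted (0.300). There 11 of 14 neutrophil markers were higher in the knockout (3.57 to 4.67 and 7.71 to 8.56), and their part was not tested.

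Cd14 had its largest change, upward, in E14 liver CD11bhigh macrophages. It read 4.52, 4.18 and 4.13 in the wild type and 6.79, 6.79 and 6.62 in the knockout (2.46 ± 0.28, limma adjusted p = 5.76e-10). In adult liver CD11bhigh macrophages it was lower, at 6.14, 5.73 and 6.87 against 7.76, 7.36 and 7.82 (-1.40, limma adjusted p = 0.000109). The genotypes were apart in both, in opposite directions, and the neutrophil lists of both populations, given above, were higher in the knockout. In the other 10 populations outside E14 Kupffer cells Cd14 was not called, with values between -0.79 and 0.56.

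Tlr5 was the member with more rises than falls. It was higher in the knockout of E14 liver CD11bhigh macrophages, at 5.24, 5.21 and 5.23 against 3.88, 3.71 and 3.88 (1.40 ± 0.30, limma adjusted p = 0.000381). It was also higher in adult kidney F4/80high macrophages, at 6.38, 6.76 and 6.47 against 5.06, 4.98 and 5.52 (1.35, limma adjusted p = 0.0019). In E14 microglia it was 5.88, 6.03 and 6.10 against 3.99, 4.78 and 5.38 (1.29, limma adjusted p = 0.00107). In each of these the knockout samples lay above the wild type, and the E14 microglia call ended without wild-type replicate 1 (0.0507). Tlr5 was lower in adult microglia, at 5.93, 4.80 and 5.61 against 6.71, 6.48 and 6.78 (-1.21, limma adjusted p = 0.0019), and in Langerhans cells (-0.86, limma adjusted p = 0.0224). Without knockout replicate 2 the first was -0.88 (0.0634). The second ended without wild-type replicate 2 or 3 or knockout replicate 1 (0.0678 to 0.179) and with each array centred on its median (0.0544).

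**Figure D4:**
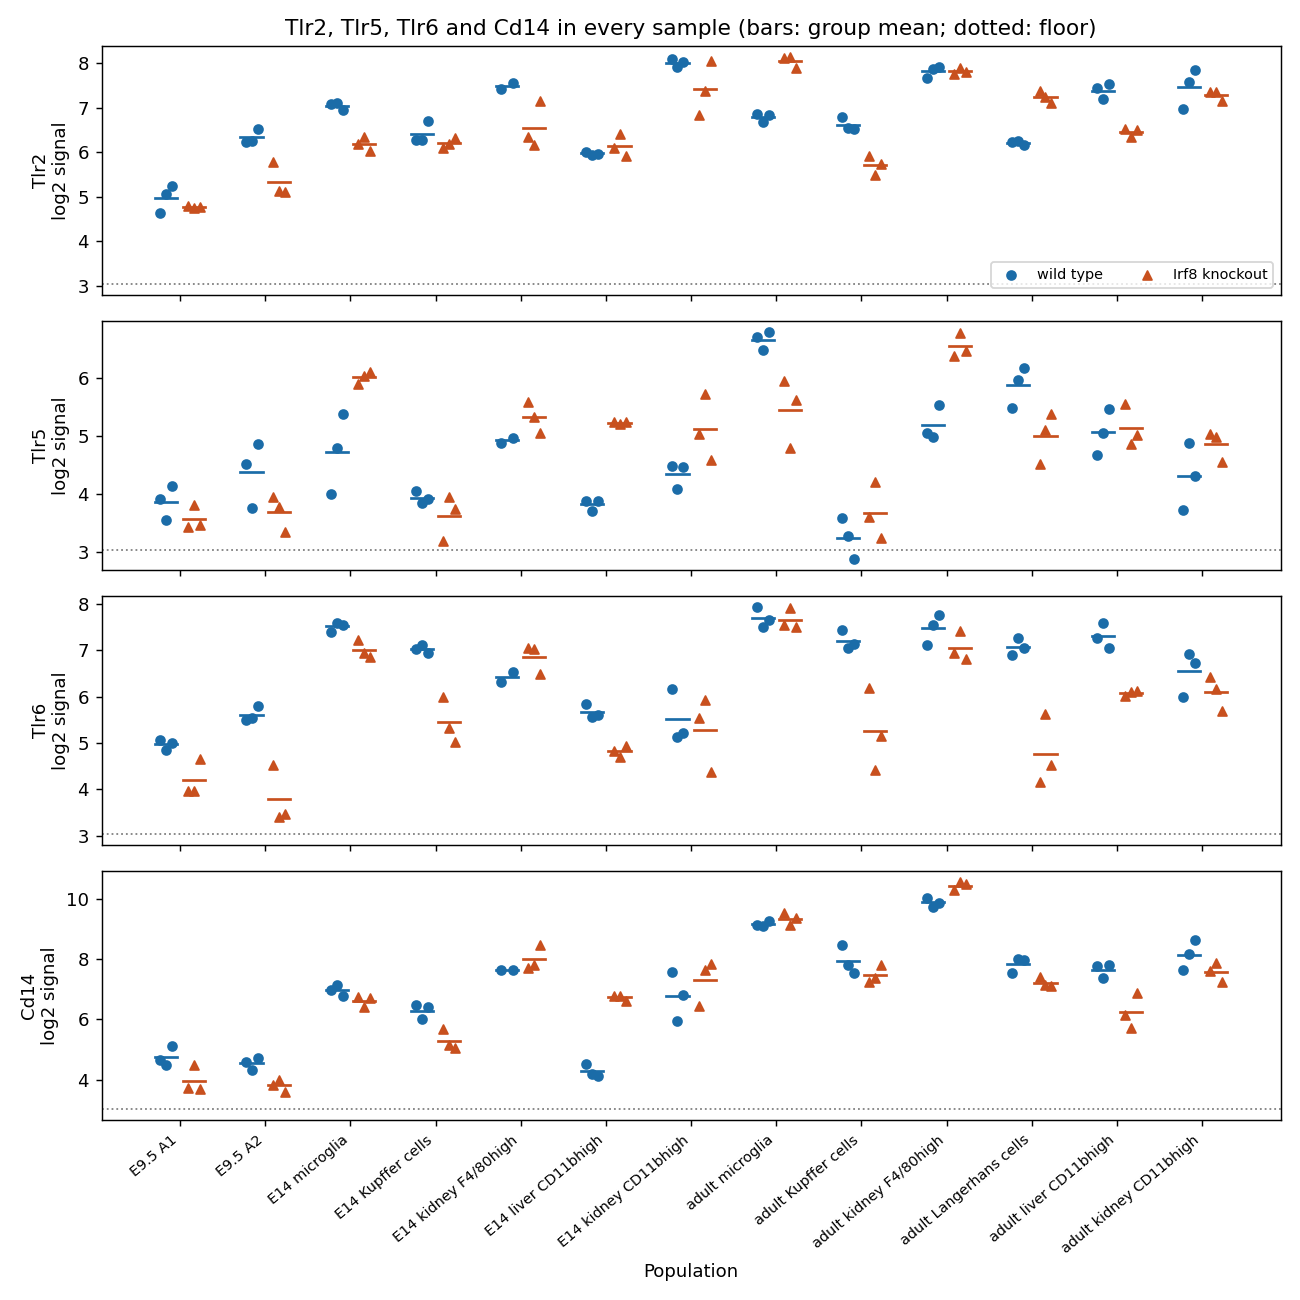
Log2 level of Tlr2, Tlr5, Tlr6 and Cd14 in every sample of each population, wild type and knockout, with bars at group means. Tlr2 lies lower in the knockout of E14 microglia and higher in adult microglia, Tlr5 does the reverse, and Cd14 has a mean of 6.73 in the knockout of E14 liver CD11bhigh macrophages against 4.28 in the wild type.

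Whether the knockout effect itself differed between populations was tested directly. A limma F-test over the 13 effects was called for 9 of 9 members, against 58.4% of all genes, with the largest F for Cd180 (19.0, limma adjusted p = 1.21e-14). Of 54 single differences of effects, 21 were called, and in 12 of these the effects had opposite signs. The share of all genes called is given with each comparison, but opposite signs were not counted over all genes. Signs were counted whether or not an effect was itself called, as with Tlr1 in adult kidney CD11bhigh macrophages (0.085, not called). Both opposite effects were called only for Tlr2 and Tlr5 in microglia, for Cd14 in liver CD11bhigh macrophages, and for Tlr1 and Tlr2 in adult microglia against Kupffer cells. Between adult and E14 microglia, 1 member differed upward (3.70% of genes) and 2 downward (6.80%): the effect on Tlr2 was 2.12 ± 0.28 higher in adults (limma adjusted p = 7.17e-08), and those on Tlr5 and Ly96 differed by -2.50 ± 0.42 (1.41e-05) and -1.42 ± 0.39 (0.0103). These compare groups within one cell type, but the E14 knockout microglia carried the neutrophil and monocyte markers given above, and their part was not tested.

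Between adult and E14 liver CD11bhigh macrophages, 1 differed upward (9.18%) and 3 downward (5.36%). The effect on Cd14 differed by -3.86 ± 0.40 (limma adjusted p = 3.11e-11) and that on Cd180 by 1.66. In kidney CD11bhigh macrophages 5 differed upward (7.49%), led by Ly86 (2.58) and Tlr1 (1.85). Both were called lower at E14 (-2.96 and -1.76) and not called in adults (-0.39 and 0.085). The calls for Ly86, Cd180 and Ly96 there each ended in 9 of 12 fits with a sample left out (limma adjusted p = 0.0518 to 0.162). In kidney F4/80high macrophages Ly86 alone differed (0.579% of genes upward), by 3.90 ± 0.93 (limma adjusted p = 0.0161), and by 5.74 without knockout replicate 3 of E14, a call that ended in 4 of 11 fits with a sample left out (0.0819 to 0.136). In Kupffer cells Cd180 alone differed (10.5% downward), by -1.59.

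Adult microglia and adult Kupffer cells differed in 7 of 9 members. The effect was higher in microglia for 5 (6.65%) and lower for 2 (6.19%). The effect on Tlr2 was higher by 2.16 ± 0.28 (limma adjusted p = 1.90e-08), on Tlr1 by 2.02, on Tlr6 by 1.91, on Cd180 by 1.60 and on Tlr4 by 1.04. Those on Ly86 and Tlr5 differed by -3.07 and -1.64. The Tlr4 call ended in 10 of 12 fits with a sample left out (limma adjusted p = 0.0536 to 0.158) and with array weights (0.0870), that of Ly86 without knockout microglia replicate 2 (0.0598), and that of Tlr5 with array weights (0.0911). So Ly86 fell further in microglia, with the limit just given. Tlr6 and Cd180 were called lower in Kupffer cells (-1.95 and -1.90) and not called in microglia (-0.043 and -0.30). In the knockout Kupffer cells endothelial markers were higher, as given above.

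Over the 27 group means, the members did not move as one. The highest Pearson correlation of a pair was 0.885, for Tlr1 and Tlr4, and Cd180 and Ly86 reached 0.599. These are descriptions over group means that share stages and sorts. The genes most like a member were, for Tlr1, the nucleotide receptor P2ry6 (0.963) and the Fc receptor Fcgr1 (0.939), and for Ly96 the F4/80 gene Adgre1 (0.942). For Ly86 they were Psap (0.850), the precursor of lysosomal saposins, Phf11b (0.849) and Mgrn1 (0.844). For Cd180 they were Ube2d1 (0.913), the DNA sensor Aim2 (0.909) and Sting1 (0.889), the adaptor of cytosolic DNA sensing. Tlr4 was closest to Tmem260 (0.943), Tlr6 to the intramembrane protease Sppl2a (0.939), Cd14 to Foxj2 (0.912), Tlr2 to Bcl2a1a (0.869) and Tlr5 to Vgll4 (0.821).

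The genes around these receptors were counted by list over the 13 populations, in which the median change of all genes ran from -0.04 to 0.03 log2 and 6.58% of all tests were called lower and 6.35% higher. A list whose count lies near these shares, as with the lower calls of the negative regulators (6 of 91), shows nothing beyond the background. The list of endosomal Toll-like receptors held Tlr3, Tlr7, Tlr8, Tlr9, Tlr11, Tlr12 and Tlr13. Its genes were called lower in 43 of 91 tests and higher in 6, with medians per population from -1.59 to -0.04. Tlr9, the DNA receptor, was lower in 9 populations, with -3.22 in E14 liver CD11bhigh macrophages and -2.71 in E14 Kupffer cells, and Tlr3, the receptor for double-stranded RNA, lower in 9 and higher in Langerhans cells (1.05). Co-receptors and ligand delivery genes were lower in 23 of 78 tests and higher in 11 (medians -1.54 to 0.47). The scavenger receptor Msr1 was lower in 7 populations, with -4.45 in A2, and higher in adult microglia (3.57), and Cd36, which assists Tlr2 with Tlr6, was lower in 7 and higher in E14 microglia (1.76). Among chaperones and trafficking genes, 11 of 78 tests were lower and 3 higher (-0.34 to 0.11). Unc93b1, which carries endosomal receptors to their compartment, was lower in 8 populations and higher in Langerhans cells, while Hsp90b1, the chaperone that folds Toll-like receptors, was lower in 2.

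In the signalling relay, TIR-domain adaptors were lower in 13 of 78 tests and higher in 4 (medians -0.61 to 0.13), with Ticam2, the adaptor of Tlr4 in endosomes, lower in 5 populations, and Pik3ap1 lower in 4 and higher in 1. The IRAK, TRAF and kinase relay was lower in 17 of 143 tests and higher in 4 (-0.32 to 0.06, 11 of 14 genes tested), with Tab2 lower in 6 populations and the kinase gene Ikbkb in 4. NF-kappa-B subunits and inhibitors were lower in 13 and higher in 13 of 91 tests (-0.62 to 0.71, 7 of 8 genes). The inhibitor gene Nfkbia was higher in 3 populations and lower in 3, and Nfkbiz higher in 4, with 2.70 in E14 liver CD11bhigh macrophages, and lower in 2. Negative regulators were higher in 11 and lower in 6 of 91 tests (-0.24 to 0.60, 7 of 8 genes), with Irak3 higher in 4 and lower in 1, and Tnfaip3 higher in 3, with 2.25 in E14 Kupffer cells, and lower in 4. Kinases named for Cd180 signalling in B cells were lower in 7 of 39 tests and higher in 1 (-0.63 to 0.33, 3 of 4 genes), with Vav1 and Syk lower in 3 populations each.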

How the data were processed

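Per the labels' protocols, cells were released with collagenase, with dispase and DNase for skin and liver and a Percoll gradient for brain, before FACS. PicoPure kits gave the RNA, and amplification used Ovation PicoSL WTA V2, with Encore Biotin as the label. Per the submitters' processing notes, the authors made the deposited log2 signals with RMA in Affymetrix Expression Console; its version and a genome build were not given in the sources used here.

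Of 41345 probes, 25335 were in the annotation table, 23521 of them with 1 symbol and 1814 with several, which were not used, and 16010 were not in it. The brightest probe stood for a gene. The 81 arrays gave 80 samples, because 2 array runs of A2 knockout replicate 2 were averaged. These runs differed by a median of 0.257 log2, and replicates by 0.219 to 0.468.

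The model, in limma 3.58.1 under R 4.3.3, held a mean for each group of the 80 samples (trended variance, 53 residual degrees of freedom), two-sided, with Benjamini-Hochberg adjustment over 17099 genes per contrast and a threshold of 0.05. A difference of effects is the difference between knockout-minus-wild-type values of 2 populations. Samples with the same replicate number did not deviate together, so numbers were not taken as pairs. All members were named, with the 3 genes of highest correlation to each and, per pathway list, the 2 genes called in the most populations. The members and lists were chosen with earlier results of these data known. The fit was tested on simulated data. Figures were drawn with Python 3.11.15 and matplotlib 3.10.9. Alternatives covered array weights, normalization, the floor, the trend, the repeated run, probe choice, the samples fitted, a replicate block and each sample left out.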

Additional observations from a re-analysis of the deposited data

Results flagged for a closer look

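Each result named here is a difference between 2 knockout effects past the limma adjusted p of 0.05, in log2 units. For microglia, adult minus E14, these were Tlr2 (2.12, from effects of 1.25 and -0.87), Tlr5 (-2.50, from -1.21 and 1.29) and Ly96 (-1.42, from -0.24 and 1.18). For Kupffer cells it was Cd180 (-1.59) and for kidney F4/80high macrophages Ly86 (3.90). The latter was not called without either wild-type E14 replicate (limma adjusted p = 0.0819 and 0.0963) or knockout E14 replicate 1 or 2 (0.136 and 0.110).

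For liver CD11bhigh macrophages, adult minus E14, they were Tlr2 (-1.10), Tlr5 (-1.33), Cd180 (1.66) and Cd14 (-3.86, from -1.40 and 2.46). Tlr5 was not called there without wild-type adult replicate 3 (0.0814) or knockout adult replicate 2 (0.0703). For kidney CD11bhigh macrophages they were Tlr1 (1.85), Tlr4 (1.35), Cd180 (0.87), Ly86 (2.58) and Ly96 (1.14). Of these Cd180 (0.0535 to 0.131), Ly86 (0.0563 to 0.162) and Ly96 (0.0518 to 0.137) each lost the call in 9 of 12 fits with a sample left out.

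For adult microglia minus adult Kupffer cells they were Tlr1 (2.02), Tlr2 (2.16), Tlr4 (1.04), Tlr5 (-1.64), Tlr6 (1.91), Cd180 (1.60) and Ly86 (-3.07). Tlr4 lost the call in 10 of 12 fits with a sample left out (0.0536 to 0.158), Ly86 without knockout microglia replicate 2 (0.0598), and Tlr5 with array weights (-1.36, 0.0911).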

How the results depend on the processing

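Of 54 knockout calls, 37 held under every alternative and with every sample left out, as did 13 of 21 differences of effects, 31 of 38 developmental steps and 24 of 26 adult comparisons. Lower knockout calls ranged from 41 to 46 against 44, and higher ones from 9 to 11 against 10. Array weights lost 7 calls and gained 12, and fitting only the compared groups lost 9 and gained 6. Apart from left-out samples, every other setting moved at most 3 calls. Same-numbered samples did not deviate together (3 of 38 pairs over 0.1, correlations from -0.18 to 0.15). With a replicate block 54 knockout calls were made, 53 of them shared: Ly96 in adult Kupffer cells was lost (limma adjusted p = 0.0586) and Tlr6 in E14 liver CD11bhigh macrophages gained (0.0382). The mean of all probes of a gene moved no call, and other probes on their own were not run, because each member has 1 probe. A level near the floor of 3.04 limits a difference.

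Of 4923 single values recomputed, 54 changed sign, none of them called before or after. Under quantile normalization these were the knockout values of Tlr6 in adult microglia (0.014) and Tlr4 in adult liver CD11bhigh macrophages (-0.0048) and the E14-to-adult steps of Tlr1 in Kupffer cells (0.028) and Ly86 in kidney F4/80high macrophages (0.10). Under median centring it was the knockout value of Tlr2 in adult kidney F4/80high macrophages (0.010). The cause was not tested.

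The others turned sign with a sample left out, with these ranges. For the knockout minus wild type they were adult microglia (Tlr6 -0.17 to 0.072), E9.5 A1 (Cd180 -0.048 to 0.21), adult kidney CD11bhigh (Cd180 -0.015 to 0.37, Tlr1 -0.044 to 0.20, Tlr2 -0.43 to 0.0056), adult kidney F4/80high (Tlr2 -0.081 to 0.043, Ly96 -0.40 to 0.039, Tlr4 -0.070 to 0.19), adult liver CD11bhigh (Tlr5 -0.13 to 0.27, Tlr4 -0.22 to 0.30), E14 microglia (Tlr4 -0.32 to 0.056), E14 kidney CD11bhigh (Tlr6 -0.55 to 0.23), E14 kidney F4/80high (Cd180 -0.034 to 0.086) and adult Langerhans cells (Tlr1 -0.67 to 0.14, Ly86 -0.53 to 0.46). For developmental steps they were adult Kupffer minus E14 Kupffer (Ly96 -0.047 to 0.23, Tlr1 -0.28 to 0.056), E14 Kupffer minus E9.5 A2 (Tlr2 -0.057 to 0.18) and adult kidney F4/80high minus E14 kidney F4/80high (Ly86 -0.094 to 0.022). For adult residents they were adult kidney F4/80high minus the other 3 (Tlr5 -0.24 to 0.034, Ly96 -0.14 to 0.30). For differences between adult and E14 knockout effects they were kidney CD11bhigh (Tlr5 -0.51 to 0.083, Tlr6 -0.68 to 0.10), Kupffer cells (Tlr1 -0.071 to 0.34, Ly96 -0.035 to 0.88, Tlr6 -0.83 to 0.058) and liver CD11bhigh (Tlr4 -0.48 to 0.036). The cause was not tested.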
